A study of Mus musculus with 12 samples.

Results

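The CCR2 ligand chemokines described here are the 4 mouse genes Ccl2, Ccl7, Ccl8 and Ccl12, taken by name from the 54232 genes of a count table from bone marrow derived macrophages (BMDMs). The cells came from C57BL/6 wild-type mice and were cultured for 5 days before a treatment of 24 h, after which poly(A)-selected RNA was sequenced. There were 6 groups of 2 libraries: unstimulated BMDMs without tumor-conditioned medium or drug (NS), BMDMs in tumor-conditioned medium (TCM) of the mouse neuroblastoma line NB9464, in which MYCN is amplified, BMDMs in TCM of NBT3L, a neuroblastoma line where it is not, and these 3 conditions with 500 nM R788 added. The groups with drug are named R788, NB9464 TCM + R788 and, for the other line, NBT3L TCM + R788. R788 is fostamatinib, an inhibitor of the tyrosine kinase Syk. NB9464 TCM was medium conditioned for 48 h without serum, and the preparation of NBT3L TCM, the base medium of the NS cells and the vehicle of R788 are not given in the sources used here, so TCM and base medium cannot be told apart in a comparison of TCM with NS. Each TCM stands for 1 cell line, and the labels do not say whether the 2 libraries of a group came from separate cultures or mice, so that p-values measure only the spread between these libraries.

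Chemokines are small secreted proteins that guide leukocytes along a concentration gradient. CCR2 is the receptor by which inflammatory monocytes leave the bone marrow and enter inflamed tissue and tumors, and macrophages are themselves a main source of its ligands. Ccl2 is the principal CCR2 ligand, Ccl7 binds CCR1 and CCR3 besides CCR2, Ccl12 is a rodent ligand of CCR2, and Ccl8 in the mouse acts chiefly through CCR8. Transcription of these genes is classically raised by NF-kB, AP-1 and interferon signals, and the transcripts are short-lived.

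The 4 genes lie in 1 cluster on the plus strand of mouse chromosome 11 (build GRCm38), within 81.2 kb. Ccl2 (ENSMUSG00000035385) occupies chr11:82035571-82037453 and Ccl7 (ENSMUSG00000035373) chr11:82045712-82047525, with a gap of 8258 bases. Ccl12 (ENSMUSG00000035352) follows at chr11:82101845-82103400 and Ccl8 (ENSMUSG00000009185) at chr11:82115185-82116799, with a gap of 11784 bases. Between Ccl7 and Ccl12 lies Ccl11, an eosinophil attractant, whose mean level was at most 1.41 normalized counts in any group. None of the members shares an exon with another annotated gene.

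The coding sequences show how far the members can be told apart by sequencing. The first 90 coding bases of each member, which begin in the first exon and run into the next, are given from the GENCODE M21 transcripts, with capitals marking each base that differs from, or has no partner in, the Ccl2 sequence to which it aligns:
Ccl2: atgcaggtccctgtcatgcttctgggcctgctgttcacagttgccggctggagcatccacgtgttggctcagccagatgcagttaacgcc
Ccl7: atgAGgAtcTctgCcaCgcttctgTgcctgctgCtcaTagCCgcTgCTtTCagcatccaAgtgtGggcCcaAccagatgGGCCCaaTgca
Ccl8: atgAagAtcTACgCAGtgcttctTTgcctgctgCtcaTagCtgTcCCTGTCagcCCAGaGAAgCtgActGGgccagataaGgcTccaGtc
Ccl12: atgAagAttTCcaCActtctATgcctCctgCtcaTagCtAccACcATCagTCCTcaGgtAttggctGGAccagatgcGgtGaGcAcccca
In this stretch 26 bases of Ccl7, 34 of Ccl8 and 31 of Ccl12 differed from Ccl2. Over the whole coding sequence the identity between members was 62.8% for Ccl2 and Ccl8 at the lowest and 70.7% for Ccl8 and Ccl12 at the highest. The longest identical run between any pair of coding sequences was 17 bases, shared by Ccl2 and Ccl12 (tctgtgctgaccccaag) and, at another place, by Ccl7 and Ccl8 (tgcctgctgctcatagc). Of all windows of 75 or 150 bases in the members' transcripts, 0 occurred in a transcript of any other gene, so an exact read of such a length belongs to a single member.

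Promoters were at hand in RefSeq for Ccl12 and Ccl8, a member with few reads under R788 and the member with almost none in any group, and they are shown to set these neighbors side by side. The 250 bases before each annotated start are printed on the plus strand of GRCm38, with capitals marking the TATAAA motif:
Ccl12, chr11:82101595-82101844: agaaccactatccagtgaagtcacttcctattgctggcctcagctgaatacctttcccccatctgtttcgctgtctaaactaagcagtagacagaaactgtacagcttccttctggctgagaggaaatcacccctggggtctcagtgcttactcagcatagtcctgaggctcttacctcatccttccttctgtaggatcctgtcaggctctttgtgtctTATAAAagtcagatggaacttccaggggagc
Ccl8, chr11:82114935-82115184: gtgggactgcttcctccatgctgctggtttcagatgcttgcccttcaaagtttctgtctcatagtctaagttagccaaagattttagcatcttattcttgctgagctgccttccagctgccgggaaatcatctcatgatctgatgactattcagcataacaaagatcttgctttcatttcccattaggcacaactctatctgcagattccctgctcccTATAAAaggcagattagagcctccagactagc
Each window held 1 match of TATAAA, which began 31 bases before the start in Ccl12 and 32 bases before it in Ccl8, and aligned bases of the windows were identical at 60.9%. On either strand, 12.4% of the 32817 promoter windows of the same length held this motif. Neither window held a match of GAAANNGAA (present in 7.12% of all windows), TTCNNNGAA (7.01%), GGGNNNTTC (11.8%), TGANTCA (6.75%) or TTNNGNAA (36.8%), which are short forms of the interferon response element, the STAT site, an NF-kB site, the AP-1 site and the C/EBP site. The motifs were picked after the windows had been read, and a missing match says only that these letters are not in these bases.

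The libraries held between 44977847 and 56449685 counts, with 16149 to 18343 genes detected. Library SJ8 of the R788 group stood apart with the fewest genes detected, so the changes of the members that rest on it are given without it as well, and the other named genes were refitted without it. All 9 macrophage markers were present, with a summed level of 72560 to 86950 TPM (a level scaled by transcript length and by library total). The defining markers Pax5 of B cells, Ncr1 and Eomes of NK cells and Th and Chga of neuroblastoma cells were at 0 in every library. Other markers of these cells were not, with up to 1.24 TPM of Cd79a, 0.312 of Klrb1c, 1.01 of Hand2 and 0.649 of Mycn. The 7 neuroblastoma markers summed to 0 TPM in NS and to at most 0.0591 in R788. With TCM they summed to 0.449 to 0.513 TPM in NB9464 TCM and 0.884 to 1.15 in NBT3L TCM. With R788 besides, the sums were 1.31 to 1.35 TPM in NB9464 TCM and 0.651 to 1.08 in NBT3L TCM. The 4 monocyte markers, Ccr2 among them, summed to 109 to 110 TPM in the NS libraries and to 56.4 to 85.3 TPM in the other groups. The 5 fibroblast markers summed to 8.67 to 11.2 TPM in the NS libraries, 19.8 to 24.2 in R788 and 18.5 to 19.4 in NBT3L TCM + R788. In the other groups they summed to 8.68 to 13.8 TPM. The 6 neutrophil markers summed to 426 to 459 TPM in NS, 663 to 713 in NB9464 TCM, 751 to 765 in NBT3L TCM, 299 to 430 in R788 and 547 to 580 in the TCM + R788 groups, mostly from S100a8 and S100a9, while Ly6g reached at most 0.253 TPM. The 3 endothelial markers summed to 10.4 to 11.2 TPM in NS, 1.1 to 1.2 in NB9464 TCM, 2.96 to 3.15 in NBT3L TCM, 5.66 to 7.77 in R788 and 0.22 to 0.963 in the TCM + R788 groups. T cell markers summed to 1.98 to 3.78 TPM in R788 and to at most 1.38 elsewhere, and dendritic cell markers to at most 3.22, with Siglech at 0. The part of any of these lists in the results for the chemokines was not tested. In bulk RNA, fewer cells that make a transcript and less transcript per cell cannot be told apart.

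Ccl2 and Ccl7 were among the most abundant transcripts of BMDMs in TCM, and Ccl2, Ccl7 and Ccl12 shared the same order of groups. From the highest to the lowest level the order was NBT3L TCM, NB9464 TCM, NS, NBT3L TCM + R788, NB9464 TCM + R788 and R788. Neighboring groups in this order had no overlapping libraries on the scale of normalized counts (counts divided by DESeq2 size factors), except NB9464 TCM + R788 and R788 for Ccl12. With 2 libraries a group, a lack of overlap can easily arise by chance. Its share over all genes was not worked out, so here and below it is a description only. Per length, Ccl2 ranked 19 among all transcripts in each NBT3L TCM library and 27 in each NB9464 TCM library, against 70 to 80 in the NS libraries and 640 to 840 in the R788 libraries. Ccl7 ranked 22 to 23 in NBT3L TCM, 45 in NB9464 TCM, 117 to 118 in NS and 1971 to 2067 in R788.

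**Figure D1:**
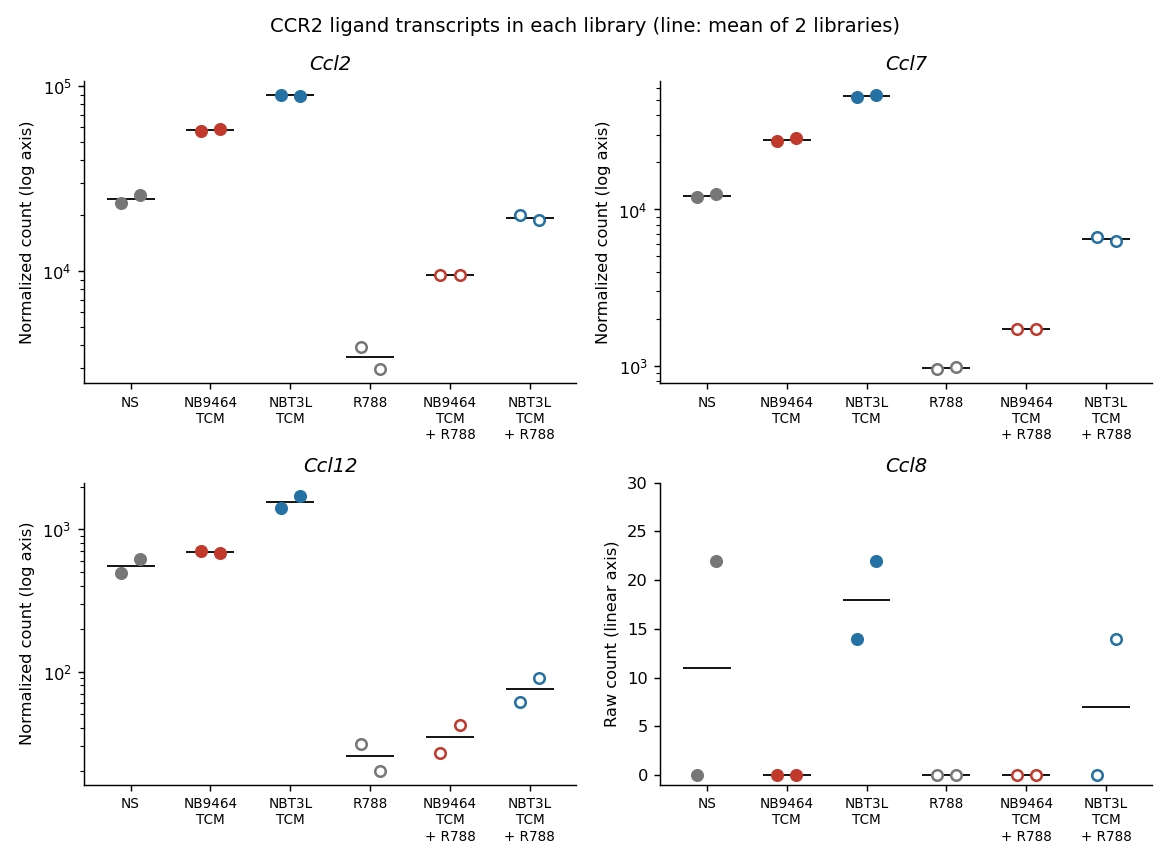
Normalized counts of Ccl2, Ccl7 and Ccl12 (log axes) and raw counts of Ccl8 (linear axis) in each of the 12 libraries, by group. Points are libraries, filled without R788 and open with it, and lines are means of 2 libraries. The NBT3L TCM libraries are the highest for Ccl2, Ccl7 and Ccl12, whereas Ccl8 stays at or under 22 raw counts.

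Ccl2, the principal CCR2 ligand, had 23264 and 25789 normalized counts in the NS libraries. In NB9464 TCM the libraries had 57537 and 58327 normalized counts, and in NBT3L TCM 89837 and 88610. The 3 groups did not overlap, and libraries within a TCM group were close to each other. With R788 alone the libraries had 3880 and 2947 normalized counts of Ccl2. They had 9472 and 9529 in NB9464 TCM + R788 and 20086 and 18875 in NBT3L TCM + R788. All 6 libraries with R788 lay under the NS libraries, and among them those with NBT3L TCM were the highest.

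Ccl7, which can also signal through CCR1 and CCR3, had 11931 and 12492 normalized counts in NS. Its libraries had 27308 and 28740 normalized counts in NB9464 TCM and 52784 and 54240 in NBT3L TCM. As for Ccl2, both TCM groups lay above NS and NBT3L TCM was the higher of them. With R788 the normalized counts were 949 and 984 without TCM, 1720 and 1712 in NB9464 TCM, and 6643 and 6279 in NBT3L TCM. No library with R788 reached the level of NS.

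Ccl12 was far less abundant, with 493 and 619 normalized counts in NS, 708 and 682 in NB9464 TCM, and 1425 and 1705 in NBT3L TCM. NB9464 TCM lay just above NS, and NBT3L TCM was clear of both. With R788 its normalized counts were 31 and 20 without TCM, 27 and 42 in NB9464 TCM, and 62 and 90 in NBT3L TCM. In the presence of R788 the libraries with NBT3L TCM stood above the others, which overlapped.

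Ccl8 was close to absent. It had 22 raw counts in 1 NS library, 14 and 22 in the NBT3L TCM libraries, 14 in 1 NBT3L TCM + R788 library and 0 in the other 8 libraries. A count of 0 allows up to 3 counts in a library of this depth, for counting error only. Ccl8 passed the filter on low counts (at least 10 counts in at least 2 libraries) through these few libraries alone. Its fitted log2 change between NB9464 TCM and NS, -5.91 with a standard error (SE) of 5.2, had no measurable direction, and no change of Ccl8 was detectable at this depth.

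Ccl2 and Ccl7 rose in TCM from either line, and Ccl12 rose in NBT3L TCM. In NB9464 TCM against NS, Ccl2 rose 2.36-fold (log2 fold change 1.24, SE 0.086, adjusted p = 2.9e-45) and Ccl7 2.29-fold (log2 1.20, SE 0.055, adjusted p = 1.28e-103), by the Wald test of DESeq2 with Benjamini-Hochberg adjustment over the 16281 genes tested. Ccl12 did not pass the test there (log2 0.32, SE 0.227, adjusted p = 0.302). Its libraries did not overlap between the groups in normalized counts but did so in TPM. Thus 2 of the 4 members were called higher and 0 lower, where 17.2% of all tested genes were called higher and 16.9% lower.

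In NBT3L TCM against NS, Ccl2 rose 3.64-fold (log2 1.86, SE 0.086, adjusted p = 1.74e-101) and Ccl12 2.81-fold (log2 1.49, SE 0.225, adjusted p = 3.01e-10). Ccl7 rose the most, 4.38-fold (log2 2.13, SE 0.055), with a Wald z of 38.9 and an adjusted p under the smallest number the program can hold. This made 3 of the 4 members called higher, against 18.0% of tested genes called higher and 17.3% called lower. The direct comparison of the media showed the difference between the lines. Relative to NBT3L TCM, NB9464 TCM left Ccl2 lower by 1.54-fold (log2 -0.62, SE 0.086, adjusted p = 3.59e-11), Ccl7 by 1.91-fold (log2 -0.93, SE 0.054, adjusted p = 5.3e-63) and Ccl12 by 2.25-fold (log2 -1.17, SE 0.224, adjusted p = 5.54e-06). All 3 were called lower, in a comparison that called 3.69% of tested genes higher and 5.72% lower. These comparisons share the NBT3L TCM or the NS libraries, so they are not independent of each other.

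**Figure D2:**
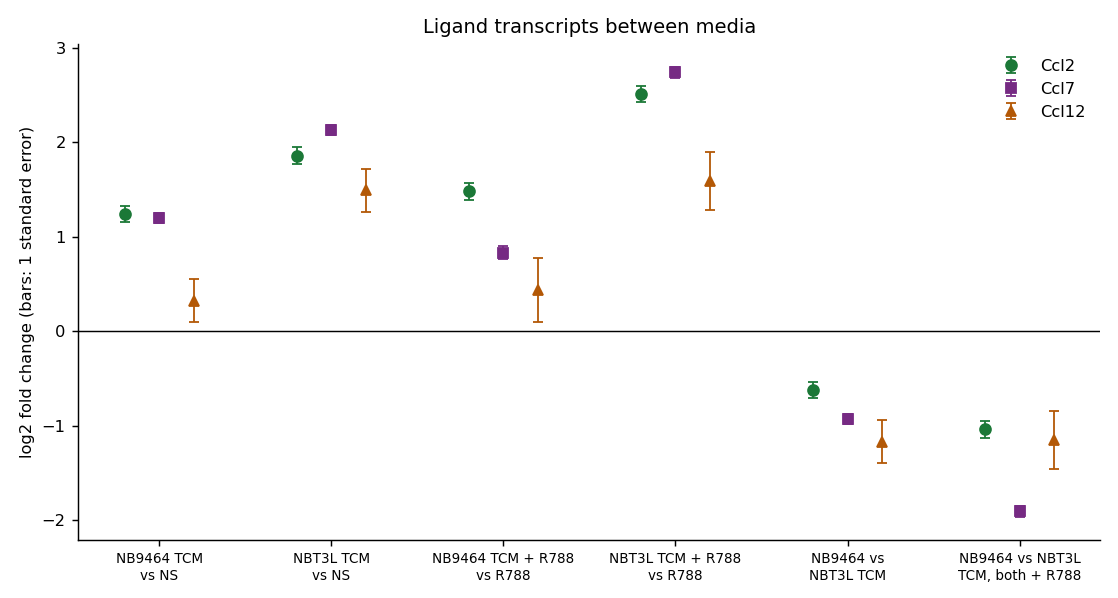
Fitted log2 fold changes of Ccl2, Ccl7 and Ccl12 in the 6 comparisons of media at the same R788 status. Points are estimates and bars 1 SE. Ccl2 and Ccl7 lie above 0 wherever TCM is set against no TCM, the Ccl12 bars for NB9464 TCM lie near 0, and all 3 genes lie under 0 where NB9464 TCM is set against NBT3L TCM.

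In the presence of R788 the media kept the same order, from a lower level. In NB9464 TCM + R788 against R788, Ccl2 rose 2.78-fold (log2 1.48, SE 0.088, adjusted p = 1.99e-61) and Ccl7 1.77-fold (log2 0.83, SE 0.067, adjusted p = 6.41e-34), while Ccl12 did not pass the test (log2 0.44, SE 0.339, adjusted p = 0.322). The call of 2 members higher stands beside 20.7% of tested genes called higher and 19.6% called lower. In NBT3L TCM + R788 against R788, Ccl2 rose 5.71-fold (log2 2.51, SE 0.088, adjusted p = 4.1e-178), Ccl7 6.68-fold (log2 2.74, SE 0.063, Wald z 43.4, with an adjusted p too small for the program to hold) and Ccl12 3.02-fold (log2 1.59, SE 0.312, adjusted p = 1.77e-06). These 3 calls stand beside 21.5% of tested genes called higher and 19.9% called lower. Without library SJ8, the log2 changes against R788 were 1.29 for Ccl2, 0.85 for Ccl7 and 0.15 for Ccl12 (adjusted p = 0.827) with NB9464 TCM, and 2.32 for Ccl2, 2.76 for Ccl7 and 1.30 for Ccl12 with NBT3L TCM. The call of Ccl12 with NBT3L TCM was lost when only the libraries compared entered the fit (adjusted p = 0.0731).

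Between the media with R788, NB9464 TCM + R788 had less of all 3 transcripts than NBT3L TCM + R788. Ccl2 was lower by 2.05-fold (log2 -1.04, SE 0.087, adjusted p = 3.88e-30), Ccl7 by 3.77-fold (log2 -1.91, SE 0.061, adjusted p = 9.91e-213) and Ccl12 by 2.22-fold (log2 -1.15, SE 0.307, adjusted p = 0.00331). Of all tested genes 3.53% were called higher and 6.09% lower in this comparison. The call of Ccl12 rested on few reads: it was lost without library SJ9 (log2 -0.85, adjusted p = 0.177), without library SJ12 (log2 -0.85, adjusted p = 0.189) and with only the libraries compared in the fit (log2 -1.12, adjusted p = 0.293).

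The fold changes above are relative to the size factors. On the TPM scale the median of all genes moved by -0.24 (log2) in NB9464 TCM and by -0.40 in NBT3L TCM against NS, and by -0.40 and -0.48 in the same media with R788 against R788. On that scale Ccl2 and Ccl7 still rose by 0.99 and 0.94 (log2) in NB9464 TCM and by 1.47 and 1.74 in NBT3L TCM, with no overlap of libraries. The log2 TPM ratio of Ccl12 was 0.07 in NB9464 TCM, with libraries at 59.4 and 72.3 TPM in NS and 72.2 and 66.1 TPM in NB9464 TCM, which overlapped. With R788 in both groups, the log2 TPM ratios of NB9464 TCM + R788 to R788 were 1.08 for Ccl2, 0.42 for Ccl7 and 0.05 for Ccl12, whose libraries overlapped. Those of NBT3L TCM + R788 to R788 were 2.05 for Ccl2, 2.27 for Ccl7 and 1.11 for Ccl12, with no overlap.

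With R788, Ccl2, Ccl7 and Ccl12 were lower in every medium, and Ccl2 had the smallest fold of the 3. The 4 genes were chosen by values of these comparisons, since falls of Ccl12 and Ccl7 with R788 were already known, so the values that follow are a description with no test. Across all tested genes, R788 against NS called 11.6% higher and 15.0% lower, R788 in NB9464 TCM 5.79% higher and 8.70% lower, and R788 in NBT3L TCM 5.33% higher and 7.24% lower. Without TCM, Ccl2 was 7.19-fold lower (log2 -2.85, SE 0.088), Ccl7 12.6-fold lower (log2 -3.66, SE 0.062) and Ccl12 22-fold lower (log2 -4.46, SE 0.292). In NB9464 TCM the log2 changes were -2.61 (SE 0.087) for Ccl2, -4.03 (SE 0.060) for Ccl7 and -4.34 (SE 0.285) for Ccl12, or 6.1-fold, 16.3-fold and 20.3-fold. In NBT3L TCM they were -2.20 (SE 0.086), -3.05 (SE 0.056) and -4.36 (SE 0.251), or 4.58-fold, 8.28-fold and 20.6-fold. The fold of Ccl7 spanned from 8.28-fold to 16.3-fold. With each library left out in turn, the log2 change of Ccl12 lay between -4.80 (without SJ7) and -4.17 (without SJ8) in the absence of TCM. In NB9464 TCM its extremes were -4.69 and -4.04, the latter without SJ9 and about equal to the change of Ccl7. In NBT3L TCM its extremes were -4.67 and -4.11. Without SJ8, the changes of R788 against NS were -2.66 for Ccl2, -3.69 for Ccl7 and -4.17 for Ccl12, and without SJ7 that of Ccl2 was -3.06. Syk, the target of R788, was itself present at the transcript level in every group, with 14987 ± 623 normalized counts (SD, n = 2) in NS and 17972 ± 525 in R788 (log2 0.26, SE 0.051, adjusted p = 3.42e-06), which does not measure the activity of the kinase. Without SJ8 this change of Syk was 0.29. Syk differed more between media. It was higher than in NS in NB9464 TCM (log2 1.18, SE 0.051, adjusted p = 5.26e-116 by DESeq2) and in NBT3L TCM (log2 1.32, SE 0.051, adjusted p = 1.64e-144).

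**Figure D3:**
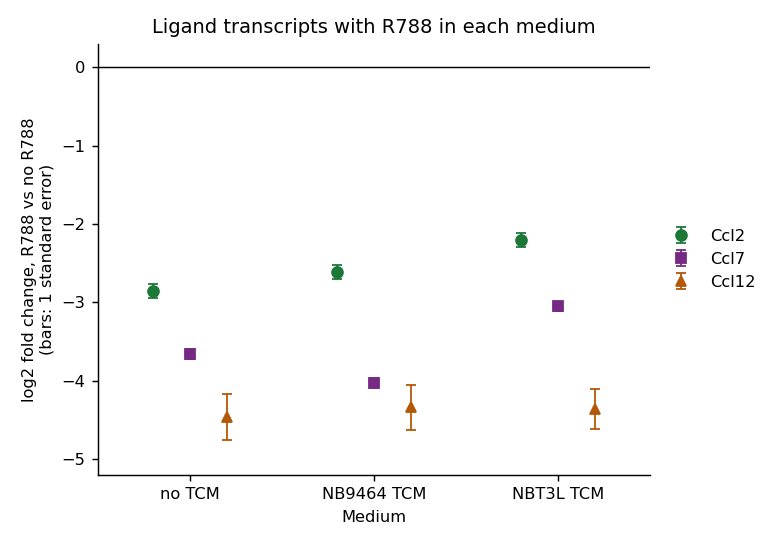
Fitted log2 fold changes of Ccl2, Ccl7 and Ccl12 with R788 against no R788, by medium. Points are estimates and bars 1 SE. Ccl2 lies between -2.85 and -2.20 and Ccl12 between -4.46 and -4.34, and the estimates for Ccl7 lie between them in each medium.

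The difference of the R788 change between media was estimated in the same fit and is also given with no test. For Ccl7 the change in NB9464 TCM was more negative than in NBT3L TCM (log2 difference -0.98, SE 0.082). Set against the change without TCM it was also more negative (-0.37, SE 0.086), while in NBT3L TCM it was less negative than without TCM (0.61, SE 0.084). For Ccl2 the change was less negative in NBT3L TCM (0.65, SE 0.123) and in NB9464 TCM (0.24, SE 0.123) than without TCM, and the difference of the TCMs was -0.41 (SE 0.122). The Ccl2 differences from no TCM depended on the R788 libraries. That for NB9464 TCM was 0.05 without SJ8 and 0.45 without SJ7, and that for NBT3L TCM 0.46 without SJ8 and 0.86 without SJ7. The difference of the TCMs does not use these libraries and lay between -0.46 and -0.37 with each library left out in turn. The 3 differences for Ccl12 lay between 0.02 and 0.12, each with an SE of 0.380 to 0.408, and each changed sign when a library was left out, with values from -0.33 to 0.46, so that a difference of the size seen for Ccl2 could not be resolved for Ccl12.

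Set against NS, cells in TCM with R788 stayed under the unstimulated level. The distance was smallest for Ccl2 in NBT3L TCM + R788, at 1.26-fold (log2 -0.33, SE 0.087), and largest for Ccl12 in NB9464 TCM + R788, at 16.2-fold (log2 -4.02, SE 0.286). Ccl7 was 1.89-fold under NS in NBT3L TCM + R788 (log2 -0.92, SE 0.056) and 7.12-fold under it in NB9464 TCM + R788 (log2 -2.83, SE 0.060). Ccl2 in NB9464 TCM + R788 was 2.58-fold under NS (log2 -1.37), and Ccl12 in NBT3L TCM + R788 was 7.31-fold under it (log2 -2.87).

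Levels of different members were compared per length, in TPM. The summed level of the 4 members was 2410 ± 90.8 TPM (SD, n = 2) in NS, and reached 4656 ± 77.1 in NB9464 TCM and 7189 ± 38.1 in NBT3L TCM. It was 285 ± 31.6 TPM in R788, 536 ± 20.7 in NB9464 TCM + R788 and 1231 ± 53.9 in NBT3L TCM + R788. Ccl2 made up 52.9% to 58.4% of this sum in the groups without R788 and 67.5% to 79.1% in those with it. Ccl12 made up 1.48% to 2.73% without R788 and 0.562% to 1.1% with it.

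The balance of Ccl7 to Ccl2 depended on the medium and on R788. The level of Ccl7 was 70.8% ± 2.86 of that of Ccl2 in NS (mean ± SD of the per-length ratio, n = 2), 68.7% ± 1.82 in NB9464 TCM and 85.2% ± 2.47 in NBT3L TCM. The NBT3L TCM libraries, at 83.5% and 87%, lay above those of the other groups. With R788 the ratio was 34.7% and 47.4% in the libraries without TCM, 25.8% and 25.5% in NB9464 TCM, and 47% and 47.3% in NBT3L TCM. Every library with R788 had less Ccl7 per Ccl2 than every library without it, a difference that follows from the R788 changes given above. The ratio in NB9464 TCM + R788 was under that in each of the other groups, with no overlap of libraries. Ccl12 was 4.79% ± 0.422 of Ccl2 in NS, 2.54% ± 0.0917 with NB9464 TCM and 3.72% ± 0.508 with NBT3L TCM, and 1.56% ± 0.178, 0.77% ± 0.239 and 0.832% ± 0.259 in the same media with R788.

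**Figure D4:**
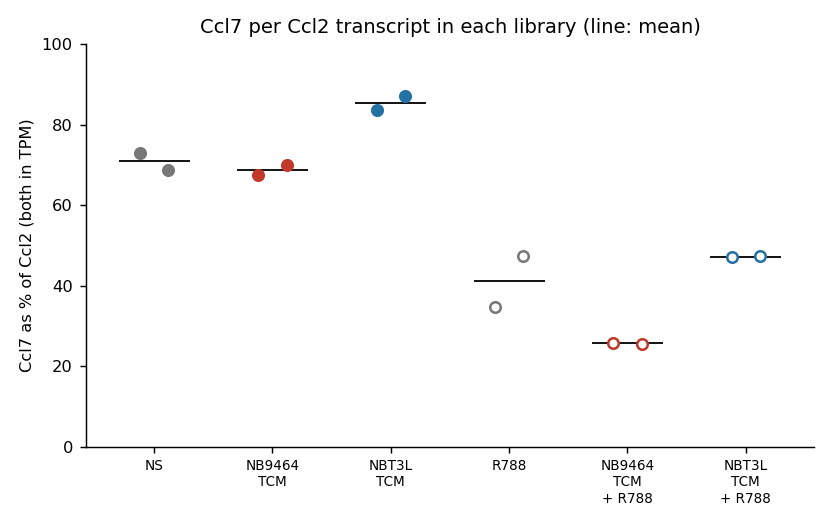
Ccl7 as a percent of Ccl2, both in TPM, in each library. Points are libraries, filled without R788 and open with it, and lines are means of 2 libraries. Ratios are 67.4% to 87% without R788 and 25.5% to 47.4% with it, and the R788 libraries without TCM are the farthest apart.

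Unlike Ccl2 and Ccl7, the receptors had no called rise in TCM against NS, while their called changes with R788 were falls. Ccr2, the receptor for which the ligands are named, fell steeply in TCM. It had 6189 and 5835 normalized counts in NS, 641 and 627 in NB9464 TCM, and 300 and 326 in NBT3L TCM. In NB9464 TCM against NS it was 9.48-fold lower (log2 -3.25, SE 0.106, adjusted p = 1.37e-204) and in NBT3L TCM 19.2-fold lower (log2 -4.26, SE 0.116, adjusted p = 7.88e-293). The media differed (log2 1.02 for NB9464 TCM against NBT3L TCM, SE 0.122, adjusted p = 7.27e-15). With R788 the libraries had 4094 and 4375 normalized counts without TCM, 386 and 370 in NB9464 TCM, and 311 and 271 in NBT3L TCM. With R788, Ccr2 fell by 1.42-fold without TCM (log2 -0.51, adjusted p = 3.68e-06) and by 1.68-fold in NB9464 TCM (log2 -0.75, adjusted p = 9.71e-09), and its value in NBT3L TCM did not pass the test (log2 -0.11, adjusted p = 0.699). Ccr2 is also on the monocyte list, whose summed level was lower than in NS in all of these groups. Ccr2 itself gave 56.7 of the 109 to 110 TPM of that sum in NS. It gave 5.01 TPM in NB9464 TCM, 2.24 in NBT3L TCM, and 2.84 and 2.09 in the same media with R788. The sums in these 4 groups were 65.1 to 67.7, 56.4 to 58.5, 85.2 to 85.3 and 74.7 to 75.2 TPM. Without Ccr2, the rest of the list was therefore not lower with TCM than in NS, and the lower sum was that of Ccr2. In R788, where Ccr2 gave 42.1 of 69 to 70.6 TPM, the rest was lower than in NS as well.

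Ccr1, which binds Ccl7, was not called in either TCM against NS (log2 -0.11 and -0.00, adjusted p = 0.609 and 0.989) and had 3817 ± 136 normalized counts (SD, n = 2) in NS. With R788, Ccr1 fell in NB9464 TCM (log2 -1.50, SE 0.136, adjusted p = 5.5e-26) and in NBT3L TCM (log2 -1.70, SE 0.137, adjusted p = 2.15e-33), and without TCM the change did not pass the test (log2 -0.15, adjusted p = 0.447). Ccr3, the eotaxin receptor, which also binds Ccl7, was scarce, with 425 ± 36.5 normalized counts in NS and 27.9 ± 3.46 in R788 (log2 -3.93, SE 0.470, adjusted p = 2.04e-15). In NB9464 TCM against NS its log2 change was -3.90 (adjusted p = 2e-15), and for NBT3L TCM it was -2.20 (adjusted p = 5.9e-06). In NB9464 TCM + R788 against R788 Ccr3 had a log2 change of -1.40, whose call was lost without SJ8 (log2 -1.27, adjusted p = 0.127). The calls of Ccr1 and Ccr2 in the comparisons with the R788 group were kept without SJ8, a refit chosen after seeing the data.

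Ccr8, the main receptor of mouse Ccl8, had 0 counts in all 12 libraries, and the scavenger Ackr1 had 2 counts in a single library. Ackr2, a scavenger of CC chemokines, passed the filter with at most 10 counts in a library and had no adjusted p in most comparisons, where it was left out by the filtering of DESeq2. It was not called in NB9464 TCM + R788 against R788 (adjusted p = 0.537).

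**Figure D5:**
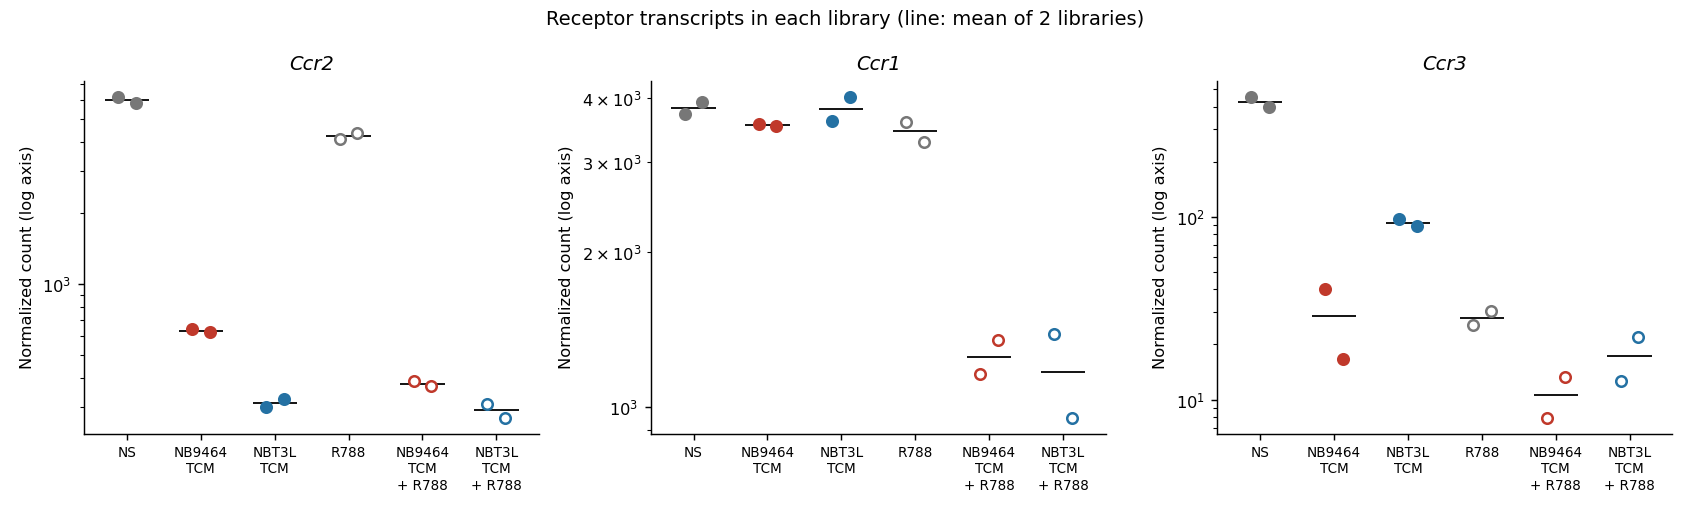
Normalized counts of the receptors Ccr2, Ccr1 and Ccr3 in each library on log axes. Points are libraries, filled without R788 and open with it, and lines are means of 2 libraries. Ccr2 is highest in NS and R788, and Ccr1 is lowest in the TCM + R788 groups.

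Of 14 other CC chemokines listed, 8 were tested. In NB9464 TCM against NS 3 were called higher (Ccl5, Ccl3 and Ccl4) and 0 lower, and in NBT3L TCM 4 were called higher (Ccl9 besides) and 0 lower, with median log2 changes of 0.39 and 1.08. All tested genes were called higher at 17.2% and lower at 16.9% with NB9464 TCM, and at 18.0% and 17.3% with NBT3L TCM. Against R788, NB9464 TCM + R788 called 3 higher and 3 lower (20.7% and 19.6% of all genes) and NBT3L TCM + R788 4 higher and 3 lower (21.5% and 19.9%), the lower genes being Ccl24, Ccl9 and Ccl6 in both. In NB9464 TCM against NBT3L TCM, 0 were called higher and 3 lower (Ccl9, Ccl3 and Ccl4), where 3.69% and 5.72% of all genes were. Between the media with R788, Ccl5 and Ccl3 were called higher in NB9464 TCM + R788 and 0 were called lower, where 3.53% and 6.09% of all genes were. With R788, 0 were called higher in any medium, and 5 were called lower without TCM, 4 with the NB9464 medium and 5 with the NBT3L medium, beside 15.0%, 8.70% and 7.24% of all genes. Ccl5, an attractant of T cells and monocytes, had the largest rise of the list, from 235 ± 91.2 normalized counts (SD, n = 2) in R788 to 8239 ± 146 in NB9464 TCM + R788 (log2 5.14, SE 0.232, adjusted p = 1.92e-106). Ccl24, an eotaxin, had the largest fall, from 37.5 ± 17 normalized counts in R788 to 0 in both NBT3L TCM + R788 libraries, which is at least 12.1-fold lower at a floor of 3 counts per library (adjusted p = 0.00473). Without SJ8, Ccl5 was still called in the comparisons with the R788 group, with a log2 change of 4.78 in NB9464 TCM + R788, and Ccl24 had no adjusted p.

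Of the 12 tested genes of interferon signalling, 2 were called higher (Irf3 and Irf8) and 7 lower in NB9464 TCM against NS, beside 17.2% and 16.9% of all genes. In NBT3L TCM 3 were called higher (Jak1, Irf8 and Ifnar2) and 5 lower, beside 18.0% and 17.3%. Stat2, Irf7 and Irf9, which carry the interferon signal or amplify it, were called lower with R788 in all 3 media, where the list had 4 called higher and 5 lower without TCM, 2 and 4 in NB9464 TCM, and 1 and 5 in NBT3L TCM. All tested genes were called higher and lower by R788 at 11.6% and 15.0% without TCM, 5.79% and 8.70% in NB9464 TCM, and 5.33% and 7.24% in NBT3L TCM. The largest fall was that of Irf7 in NB9464 TCM, from 7580 ± 6.95 normalized counts (SD, n = 2) to 1086 ± 13.3 with R788 (log2 -2.80, SE 0.066, with an adjusted p too small for the program to hold). The largest rise was that of Ifnar2, a subunit of the receptor for type I interferon, in NBT3L TCM + R788 against R788 (log2 0.61, SE 0.098, adjusted p = 3.99e-09), or 0.43 without SJ8.

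Among the 15 genes of NF-kB, AP-1 and C/EBP factors, all tested, 10 passed as higher and 3 as lower in NB9464 TCM against NS, and 9 higher and 3 lower in NBT3L TCM. All genes were called higher and lower at 17.2% and 16.9% in the former comparison and at 18.0% and 17.3% in the latter. The median log2 changes were 0.40 and 0.69. With R788 the calls went both ways, 6 higher and 4 lower without TCM, 4 and 2 in NB9464 TCM, and 3 and 3 in NBT3L TCM, beside shares of all genes of 11.6% and 15.0%, 5.79% and 8.70%, and 5.33% and 7.24%. Fosl1, a subunit of AP-1, had the largest rise and the largest fall of the list. It rose from 176 ± 43.2 normalized counts (SD, n = 2) in NS to 626 ± 28.4 in NBT3L TCM (log2 1.83, SE 0.259, adjusted p = 1.61e-11) and was 138 ± 0.887 in NBT3L TCM + R788 (log2 -2.18 against NBT3L TCM, SE 0.263, adjusted p = 8.82e-15).

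Of the 11 inducing cytokines and cytokine receptors, NB9464 TCM against NS called 8 higher and 1 lower, and 9 higher and 1 lower in NBT3L TCM, with medians of 0.84 and 1.16 (log2), beside 17.2% higher and 16.9% lower, and 18.0% and 17.3%, of all genes. With R788, 3 were called higher and 2 lower without TCM and in NB9464 TCM, and 3 higher and 4 lower in NBT3L TCM. The shares of all genes were 11.6% higher and 15.0% lower, 5.79% and 8.70%, and 5.33% and 7.24%. Il6, an inflammatory cytokine, was at 0 in both R788 libraries and at 490 ± 50.7 normalized counts (SD, n = 2) in NBT3L TCM + R788, at least 191-fold higher at a floor of 3 counts per library (adjusted p = 2.31e-14), a call kept without SJ8 (adjusted p = 1.63e-07). Il1b, which induces Ccl2 in many cells, was lower in NB9464 TCM than in NBT3L TCM, at 1044 ± 112 against 9305 ± 42.5 normalized counts (log2 -3.16, SE 0.100, adjusted p = 8.26e-216).

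The genes most like each member were those with the highest Pearson correlation of log2(normalized count + 1) over the 12 libraries, among 10710 genes, given as a description since the libraries share groups. For Ccl2 they were Hk3 (r = 0.985), Dach1 (0.983), Tatdn2 (0.970), Atic (0.969) and Tnfaip1 (0.965). For Ccl7 Hk3 again came first (r = 0.981), followed by Tatdn2, Ipo5, Rap1b and Tnfaip1 (0.968 to 0.965). For Ccl12 they were Dhx58 (r = 0.981), Mlkl, Cdc25a, Tubb6 and Mdm2 (0.970). Thus Ccl2 and Ccl7 shared 3 of their 5 nearest genes, and Ccl12 shared none with them. The nearest gene to Ccl8 was Cdk4 (r = 0.821), which rests on the 4 libraries with any Ccl8 count. Among themselves, Ccl2 and Ccl7 correlated at r = 0.982, Ccl7 and Ccl12 at 0.963 and Ccl2 and Ccl12 at 0.925. All of these correlations include the changes with R788, of which the falls of Ccl12 and Ccl7 were known when the members were chosen. They are therefore no test of a shared pattern.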

How the data were processed

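The deposited table held raw counts per Ensembl gene, whole numbers that the authors had not divided by gene length or depth, beside a gene length. Reads were aligned by the authors to mm10, and the submitters' processing notes name STAR 2.6.1d, Salmon 1.4.0, SAMtools 1.9, Picard 2.26 and MultiQC 1.11. The program that wrote the counts, its use of strand and its treatment of reads with several matches are not given in the sources used here. The methods of the study name triplicates and single reads, whereas the labels give 2 paired-end libraries per group. Even values made up 65.2% to 67.9% of counts from 1 to 40, a pattern that arises when both mates are counted, so counts divided by 2 were an alternative.

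The 16281 genes that reached 10 counts in 2 or more libraries were tested with DESeq2 1.42.0 in R 4.3.3: median-of-ratios size factors, 1 fit of 6 group means over 12 libraries, Wald tests on log2 fold changes without shrinkage, given with SE, and Benjamini-Hochberg adjustment per contrast. A gene was called at an adjusted p under 0.05. Alternatives were edgeR 4.0.16 (quasi-likelihood, TMM scaling), TMM scaling in DESeq2, other filters, fits of only the libraries compared and fits without each library. Refits of other named genes without SJ8 were chosen after seeing the data. The script was tested on simulated data. TPM was computed from the deposited counts and lengths. Symbols and positions came from GENCODE M21 (GRCm38), which held 54165 of 54232 gene IDs. Its merged exon length equaled the deposited length for 97.3% of shared IDs.

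The members and gene lists were chosen with earlier results of these data known. Named were the 4 members, Syk, tested receptors, from each other list the called gene with the largest rise and that with the largest fall over 9 pairwise comparisons, and for each member the 5 genes with the highest correlation, provided their mean reached 100 normalized counts. Ccl19, with 2 IDs, was left out. Some genes of these lists are not reported here. Libraries came from the labels, which give no batch. The depth of 44977847 to 56449685 counts gives little counting error for Ccl2 and Ccl7, and more for Ccl12 with R788.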

Additional observations from a re-analysis of the deposited data

Results flagged for a closer look

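A difference in the R788 change between media was tested for the receptors Ccr1, Ccr2 and Ccr3, and 4 of 9 such differences passed the threshold of 0.05 on the adjusted p by DESeq2. Of all 16281 genes, 12.5% passed for NB9464 TCM against no TCM, 10.1% for NBT3L TCM against no TCM and 0.706% for NB9464 TCM against NBT3L TCM. The log2 change of Ccr1 with R788 was more negative in NB9464 TCM than without TCM (difference -1.35, SE 0.191, adjusted p = 1.33e-10), and likewise in NBT3L TCM (difference -1.55, SE 0.191, adjusted p = 7.47e-14). For Ccr3 the change was less negative in NB9464 TCM than without TCM (difference 2.50, SE 0.739, adjusted p = 0.00757), with 28.4 ± 16.6 normalized counts (SD, n = 2) in NB9464 TCM and 10.6 ± 3.8 in NB9464 TCM + R788. For Ccr2 the change was more negative in NB9464 TCM than in NBT3L TCM (difference -0.64, SE 0.176, adjusted p = 0.0413). The first 3 of these, which use the R788 group, were kept without SJ8 (-1.41, -1.61 and 2.64). Groups of 2 libraries are too small for a test of outlying libraries.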

How the results depend on the processing

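No paired analysis was possible because the library numbers SJ1 to SJ12 are each given to a single library and no 2 groups share a number. Of the 18 tested changes of Ccl2, Ccl7 and Ccl12, 176 of 180 values under an alternative kept their direction and side of the threshold, and 0 changed sign. The untested differences of the R788 change for Ccl12 did change sign when a library was left out (-0.33 to 0.46). The call of Ccl12 in NBT3L TCM + R788 against R788 was lost with only the libraries compared in the fit (log2 1.59, adjusted p = 0.0731), which left 2 members called in place of 3. The call of Ccl12 in NB9464 TCM + R788 against NBT3L TCM + R788 was lost in the same kind of fit (log2 -1.12, adjusted p = 0.293), and its log2 change ranged from -1.50 to -0.85 without each library in turn, the calls without SJ9 and SJ12 being lost, each time leaving 2 members called. The change of Ccl2 in R788 against NS ranged from -3.06 without SJ7 to -2.66 without SJ8. With fewer libraries the fit has less information on the spread. With Spearman in place of Pearson correlation, 1 of the 5 genes most like Ccl2 and 0 of the 5 most like Ccl7 and Ccl12 were the same, so these lists depend on the measure. Depth limits Ccl8, at most 22 counts in a library, and Ccl12 with R788.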

Other observations

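Of 7 mRNA decay factors, which bind or cleave transcripts after transcription, 1 was called higher and 2 lower in each TCM against NS, beside 17.2% and 16.9% of all genes with NB9464 TCM and 18.0% and 17.3% with NBT3L TCM. Zc3h12a, an endonuclease that cleaves inflammatory transcripts, had the largest rise, from 3255 ± 113 normalized counts (SD, n = 2) in R788 to 12330 ± 544 in NB9464 TCM + R788 (log2 1.92, SE 0.061, adjusted p = 2.93e-217 by DESeq2). Zfp36l1, which binds AU-rich elements, had the largest fall, from 698 ± 165 in R788 to 189 ± 25.6 in NBT3L TCM + R788 (log2 -1.89, SE 0.314, adjusted p = 1.27e-08). With R788 the list had 0 called higher and 3 lower without TCM, 1 and 2 in NB9464 TCM, and 1 and 0 in NBT3L TCM, beside shares of all genes of 11.6% and 15.0%, 5.79% and 8.70%, and 5.33% and 7.24%. Without SJ8 the changes of Zc3h12a and Zfp36l1 given here were 1.96 and -2.12 (adjusted p = 5.58e-185 and 5.92e-08).

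The 5 proteases listed as chemokine-cleaving were Dpp4 and matrix metalloproteinases, and all were tested. In each TCM against NS, 3 were called higher (Mmp2, Mmp14 and Mmp3) and 1 lower (Mmp12). The shares of all genes called higher and lower were 17.2% and 16.9% with NB9464 TCM, and 18.0% and 17.3% with NBT3L TCM. Mmp3 was at 0 in both NS libraries and at 40.8 ± 15.7 normalized counts (SD, n = 2) in NBT3L TCM, at least 14.4-fold higher at a floor of 3 counts per library (adjusted p = 0.000156). Mmp12, the macrophage elastase, fell from 14049 ± 316 in NBT3L TCM to 2002 ± 17.1 in NBT3L TCM + R788 (log2 -2.81, SE 0.085, adjusted p = 6.55e-238).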
